A study of Mus musculus with 8 samples.

Results

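The genes described here are 7 matrix metalloproteinases and 3 of their inhibitors: Mmp2, Mmp3, Mmp9, Mmp10, Mmp12, Mmp13, Mmp14, Timp1, Timp2 and Timp3. They were picked by name, and all 10 were found among the 31053 gene rows of the UMI count tables. The tables hold single-cell 3' RNA counts (unique molecular identifiers, UMIs) of mouse colonic lamina propria after CD4+ T cell enrichment. There were 8 libraries in 4 groups of 2, all from C57BL/6 mice aged 10 to 12 weeks: untreated wildtype, untreated mutant, DSS wildtype and DSS mutant. The mutant carries an altered RORgt, the transcription factor of T helper 17 cells, and the sources name the allele in different ways (S203AKI in the sample names, RORgtS182A in the series title). DSS mice drank 2% dextran sodium sulphate, which injures the colon epithelium, for 7 days, and plain water again for the next 3 days. Untreated mice drank plain water for 10 days, and all were taken on day 10. The labels name no Cre or transgene, and whether a library is 1 animal or a pool is not stated, so p-values measure the spread between libraries.

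Matrix metalloproteinases are zinc-dependent proteases that cut collagens and other matrix proteins, and most are made as inactive secreted precursors. Mmp14 is held in the cell membrane and activates the Mmp2 precursor, with Timp2 as the bridge between them, while Timps block the active proteases by binding them. In the injured colon, stromal cells and macrophages are known sources of these enzymes, and cytokines of the interleukin-1, TNF and oncostatin M families are known to raise transcription of several of them through AP-1 factors.

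Mmp13, Mmp12, Mmp3 and Mmp10 lie within 237.7 kb on chromosome 9 (mm10, chr9:7272514-7510240), all on the plus strand. The other members lie elsewhere: Mmp9 on chromosome 2, Mmp2 on 8, Timp3 on 10, Timp2 on 11, Mmp14 on 14 and Timp1 on X. The RefSeq promoter table (GRCm38.p6) held 9 entries for 8 of the 10 members, each running from 250 bases before to 50 bases after a start. The letters TGAGTCA, the AP-1 motif, were searched on both strands together with TATAAA. An AP-1 match was found in 1 entry each of the chromosome 9 members and in none of the entries of Timp1, Timp2, Timp3 and Mmp14. These sequences are shown because the members that share the motif and the neighbourhood differed in which cells held them and in how they moved after DSS. Each line gives the 120 bases before the start, 5′ to 3′, with both motifs in capitals.
Mmp13 (chr9:7272394-7272513): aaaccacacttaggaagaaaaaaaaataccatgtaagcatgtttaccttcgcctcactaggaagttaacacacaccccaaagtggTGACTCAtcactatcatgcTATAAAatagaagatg
Mmp12 (chr9:7347254-7347373): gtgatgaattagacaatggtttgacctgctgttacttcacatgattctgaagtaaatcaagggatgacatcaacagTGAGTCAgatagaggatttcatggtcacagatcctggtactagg
Mmp3 (chr9:7445702-7445821): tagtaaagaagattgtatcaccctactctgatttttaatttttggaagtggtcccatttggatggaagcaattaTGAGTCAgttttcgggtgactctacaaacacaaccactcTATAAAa
Mmp10 (chr9:7502222-7502341): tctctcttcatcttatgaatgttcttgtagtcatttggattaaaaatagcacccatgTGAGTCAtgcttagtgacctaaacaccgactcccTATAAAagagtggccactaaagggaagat

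The AP-1 match began 35 bases before the start in Mmp13, 44 in Mmp12, 46 in Mmp3 and 63 in Mmp10. The Mmp12 entry with the match is the second of its 2, and its TATAAA lies after the start and is not shown. Of all 32851 promoter entries, 5.2% held TGAGTCA, 13.6% held TATAAA and 0.941% held both. All 6 Mmp genes between Mmp13 and Mmp10 (the 4 members, Mmp1a and Mmp1b) held TGAGTCA, and so did 1 (Mmp7) of the 4 Mmp genes next to this stretch, so the match does not set the members apart from their neighbours. A match is a description of letters only.

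The 8 libraries held 10563 to 16133 barcodes and 34497509 to 46960005 UMIs each. Of 100673 barcodes, 96721 had at least 400 genes and under 20% mitochondrial UMIs, and 1176 of 99487 distinct barcode sequences occurred in more than 1 library. Clustering without the members gave 36 clusters, named from markers. Despite the enrichment, 40051 barcodes were T cell-like, 9142 fibroblast-like, 7242 macrophage-like and 2963 endothelial-like, and 25175 stayed unnamed. Levels are given as CPM, the UMIs of a gene per 1000000 UMIs summed over the barcodes of a class in a library. Dcn, a fibroblast proteoglycan, stood at 4785 to 8466 CPM in fibroblast-like barcodes and at 8.47 to 34.3 CPM in macrophage-like ones. C1qa, a macrophage complement gene, stood at 3043 to 4736 CPM in macrophage-like barcodes, Pecam1 at 714 to 1013 CPM in endothelial-like and Cd3e at 282 to 372 CPM in T cell-like barcodes. The endothelial-like class held Dcn at 297 to 782 CPM, with Rgs5, a pericyte gene, among the leading genes of its main cluster. Because sums are relative to the RNA of a class, fewer expressing cells and less RNA per cell cannot be told apart.

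The members divided between cell classes. In DSS libraries, fibroblast-like barcodes held 86.6% of all Mmp3 UMIs, 84.3% of Mmp2, 76.4% of Timp1 and 75.6% of Mmp10. Macrophage-like barcodes held 60.6% of Mmp13 and 57.8% of Mmp12. Mmp14 was split, with 42.2% in fibroblast-like and 25.4% in macrophage-like barcodes, and Timp3 UMIs lay in fibroblast-like (47.3%) and endothelial-like (36.4%) barcodes. For Mmp9, a gelatinase stored by neutrophils, 41.2% of UMIs came from an unnamed cluster led by Foxp3, the regulatory T cell factor, and 19.9% from the neutrophil-like barcodes, which made up 0.268% of barcodes. These shares follow the enrichment and the number of barcodes of each class as well as the levels.

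**Figure D1:**
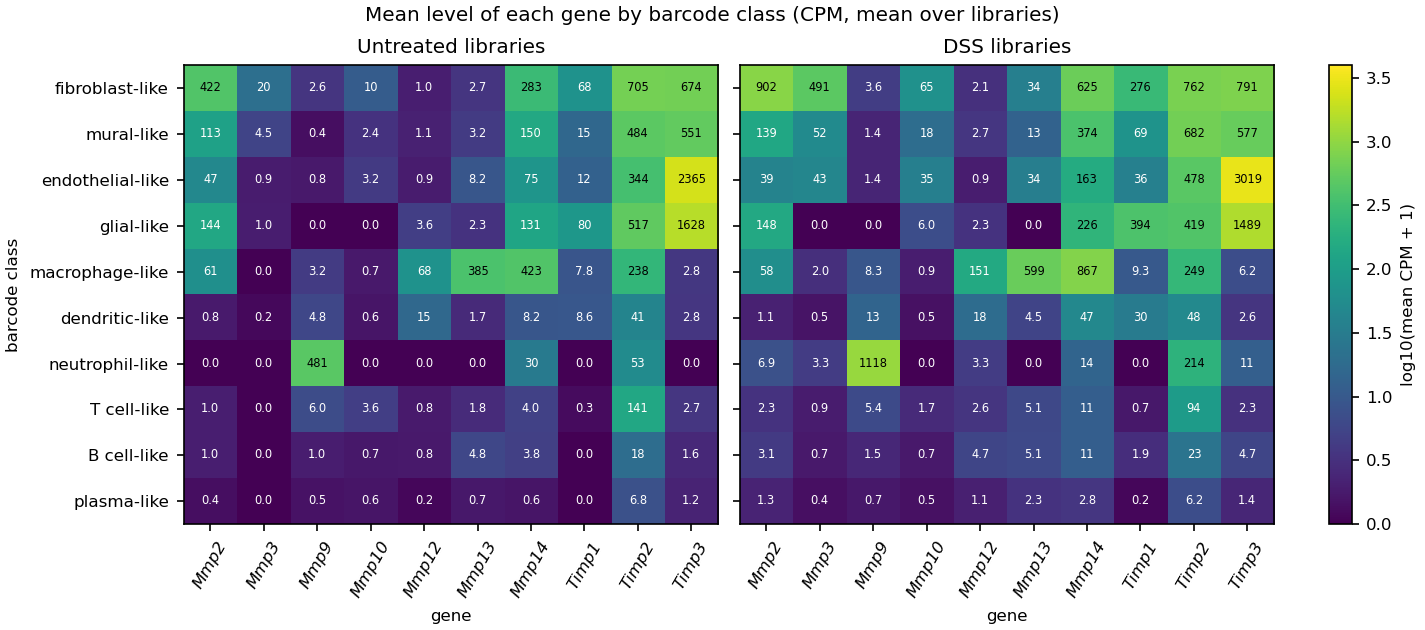
Mean level of the 10 genes (columns) in 10 barcode classes (rows), as CPM averaged over 4 untreated libraries (left) and 4 DSS libraries (right). Colour is log10(mean CPM + 1) and the printed number is the mean CPM, so the rise of Mmp3 in fibroblast-like barcodes and the high Timp3 of endothelial-like barcodes in both conditions can be read off.

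Fibroblast-like barcodes had the most members changed after DSS. Of 10 members tested, 6 rose (Mmp3, Mmp13, Mmp10, Timp1, Mmp14 and Mmp2) and none fell, in edgeR's quasi-likelihood test with Benjamini-Hochberg adjustment over all 13266 genes. Of those genes, 10.9% were called higher and 22.3% were called in either direction. The members' median log2 fold change was 1.15, against -0.01 over all genes tested. Mmp12, Mmp9, Timp2 and Timp3 did not pass. Mmp9 stood at 2.61 ± 1.0 CPM without and 3.56 ± 0.28 CPM with DSS (SD, n = 4; adjusted p = 0.11), and Mmp12 at 1.02 ± 0.56 and 2.14 ± 2.59 CPM (adjusted p = 0.44).

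Mmp3, or stromelysin-1, cuts proteoglycans, laminin and other Mmp precursors. Its level was 12.8 and 22.0 CPM in the untreated wildtype libraries and 27.4 and 16.8 CPM in the untreated mutant ones. After DSS it was 519 and 493 CPM in wildtype and 509 and 444 CPM in mutant libraries. The groups were far apart, and the 4 DSS values lay close together. The log2 fold change was 4.65 ± 0.21 (SE; adjusted p = 8.5e-06).

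The share of fibroblast-like barcodes with an Mmp3 UMI, after thinning each barcode to 1000 UMIs, was 1.37% ± 0.35 (SD, n = 4) without and 15.6% ± 2.32 (SD, n = 4) with DSS. Unthinned shares were 3.13% and 28.1%, at median depths per library of 3956 to 5247 and 5565 to 7749 UMIs. Thinning left out 103 untreated and 62 DSS barcodes that were shallower. Macrophage-like barcodes, which held few Mmp3 UMIs, had a thinned share of 0.24% after DSS at median depths of 2004 to 3035 UMIs. Mmp3 was thus detected in a minority of fibroblast-like barcodes, and the 5 richest held 14.4% to 36.6% of its UMIs in the DSS libraries.

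Mmp10, or stromelysin-2, a close relative of Mmp3, also rose. Its untreated levels were 9.87, 11.2, 9.32 and 9.91 CPM. The DSS levels were 26.1 and 83.2 CPM in wildtype and 97.3 and 54.0 CPM in mutant libraries. Each DSS library was above each untreated one, with DSS wildtype replicate 1 the lowest. The log2 fold change was 2.74 ± 0.33 (adjusted p = 0.00091), and the thinned share of barcodes went from 0.677% ± 0.088 to 3.08% ± 0.94 (SD, n = 4).

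Mmp13, the main collagenase of mice, was scarce in untreated fibroblast-like barcodes at 3.34, 1.49, 5.30 and 0.48 CPM. After DSS, 3 libraries had 47.7, 44.7 and 41.4 CPM, while DSS wildtype replicate 1 had 3.34 CPM, inside the untreated range. The log2 fold change was 3.73 ± 0.63 (adjusted p = 0.0048). Without DSS wildtype replicate 2 the estimate was 2.11 and the call was lost (adjusted p = 0.18). In DSS mutant replicate 2, 1 barcode held 168 of the 297 Mmp13 UMIs.

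Mmp2 and Mmp14 rose from levels that were already high. Mmp2, a gelatinase, stood at 404, 384, 468 and 433 CPM in untreated libraries and at 759, 994, 767 and 1087 CPM after DSS. Its log2 fold change was 1.12 ± 0.16 (adjusted p = 0.0019). Mmp14, the membrane-bound activator of Mmp2, stood at 277, 239, 296 and 318 CPM and then at 525, 739, 569 and 669 CPM. Its log2 fold change was 1.17 ± 0.15 (adjusted p = 0.0012). For neither gene did the groups overlap.

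Timp1, the inducible inhibitor, stood at 54.8, 80.5, 78.2 and 57.8 CPM without DSS. After DSS it was 389 and 224 CPM in wildtype and 302 and 187 CPM in mutant libraries, each above all untreated values. The log2 fold change was 2.01 ± 0.22 (adjusted p = 0.00056). Timp2 was at 705 ± 53.5 CPM without and 762 ± 61.2 CPM with DSS (SD, n = 4), and its log2 difference of 0.13 ± 0.11 did not pass (adjusted p = 0.40). In 5 of the 10 members (Mmp2, Mmp3, Mmp10, Mmp14 and Timp1) the DSS and untreated libraries did not overlap, against 26.6% of all genes tested.

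**Figure D2:**
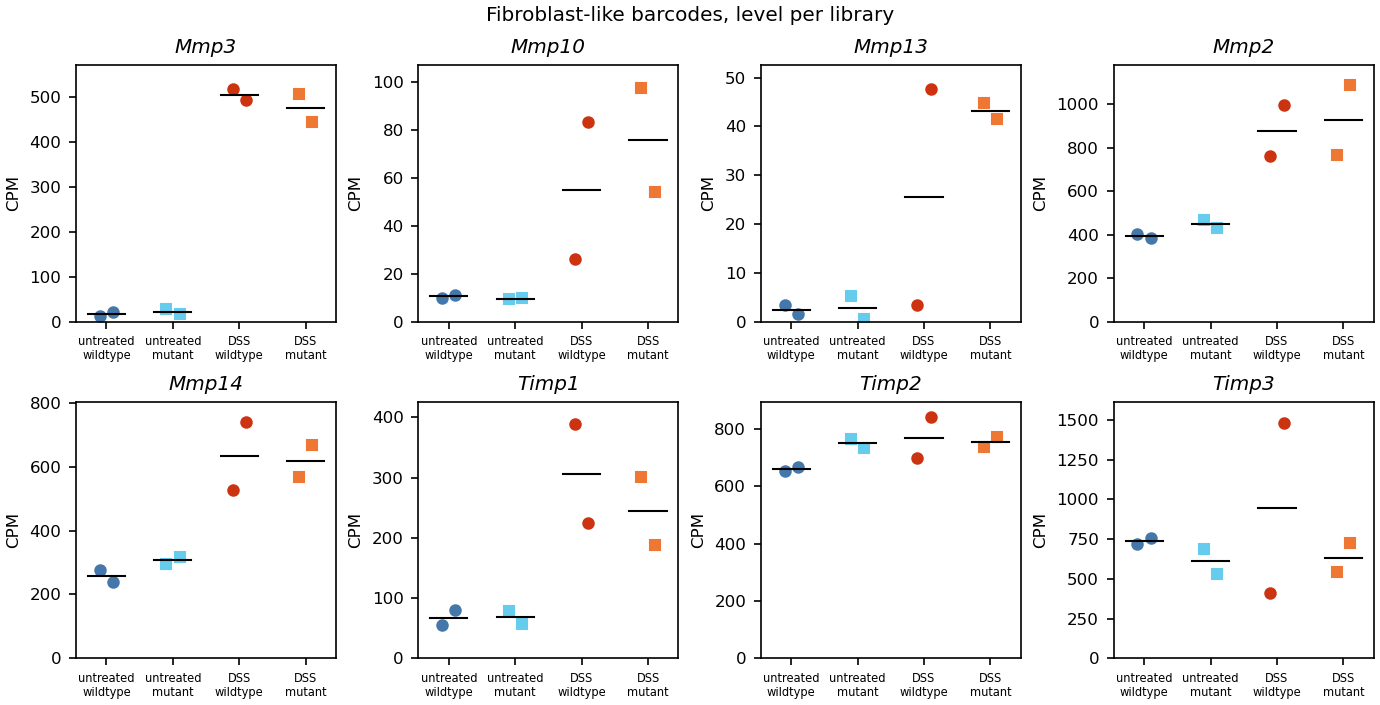
Level (CPM) of 8 members in fibroblast-like barcodes, 1 point per library, circles for wildtype and squares for mutant, with a line at the mean of the 2 libraries of each group. The DSS points of Mmp3, Mmp10, Mmp2, Mmp14 and Timp1 all lie above the untreated points, and the low DSS wildtype point of Mmp13 is replicate 1.

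Markers of other cells also moved in this class. The summed level of 5 plasma cell markers was 216 to 416 CPM without and 1161 to 2575 CPM with DSS, and 6 neutrophil markers went from 0.64 to 4.03 up to 5.56 to 80.7 CPM. The 8 macrophage markers covered 200 to 272 and 259 to 432 CPM, and the 10 endothelial markers 27.8 to 33.3 and 26.4 to 50.1 CPM. With barcodes holding markers of another class left out, 6 members were again called and 1813 genes in place of 2957. The part of these other cells' RNA in the members' values was not tested.

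The fibroblast-like class was not made of the same clusters in both conditions. A cluster led by Igfbp5, Serpina3n, Ereg and Grem1 (cluster 18) held 19 untreated and 1442 DSS barcodes, so no test was possible in it. It carried 59.9% of all Mmp3 UMIs and 68.5% of all Mmp10 UMIs of the DSS libraries, from 2.89% of their barcodes. Its Mmp3 level was 606, 526, 1124 and 507 CPM in the DSS libraries. The 5 richest barcodes held 18.1% to 68.3% of its Mmp3 UMIs there. Cluster 18 had 56 and 665 barcodes in DSS wildtype and 239 and 482 in DSS mutant libraries. In the same order it held 1 of 6, 310 of 323, 201 of 230 and 293 of 297 Mmp13 UMIs of the class. Outside DSS wildtype replicate 1, the Mmp13 UMIs of the class after DSS thus lay mostly in this cluster, which could not be tested. The clusters led by Adamdec1 (cluster 11) and by Ogn, Cxcl12 and Pdgfra (cluster 15) were mainly untreated, with 22 to 139 and 27 to 113 barcodes per DSS library. A further cluster led by Adamdec1 (cluster 19) held 172 to 404 barcodes per untreated and 5 to 61 per DSS library. It was not tested by itself.

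A cluster led by Dcn, Mgp, Dpt and C3 (cluster 16) was present throughout, with 105 to 338 barcodes per library, and allowed a comparison within 1 cluster. Of 6 members tested there, 5 were called, against 18.7% of 9847 genes. Mmp3 went from 26.7 to 47.6 CPM up to 354 to 693 CPM (log2 fold change 3.79 ± 0.18, adjusted p = 1.2e-08). Timp1 rose by 2.2 ± 0.28, Mmp2 by 1.56 ± 0.17 and Mmp14 by 1.43 ± 0.16 on the log2 scale. Mmp10, at 0 to 6.76 CPM in every library, was too low to be tested, while cluster 15 held it at 22.6 to 29.2 CPM without and 19.8 to 109 CPM with DSS.

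The other 2 clusters tested did not share all of these rises. In cluster 11, where 3.2% of genes were called, Mmp14 rose by 1.23 ± 0.22 (adjusted p = 0.0014). Mmp3 there was at 5.17 to 25.1 CPM without and 34.9 to 200 CPM with DSS (1.96 ± 0.52, adjusted p = 0.038), and the call was lost without untreated wildtype replicate 2, DSS wildtype replicate 1 or DSS mutant replicate 2 (adjusted p = 0.060, 0.30 and 0.059). Timp1 (-0.14 ± 0.28, adjusted p = 0.86) did not pass in it. Mmp2, at 431 to 502 CPM without and 661 to 957 CPM with DSS, was just short of the threshold (0.62 ± 0.18, adjusted p = 0.064), and it passed by DESeq2 (adjusted p = 0.0017) and without DSS mutant replicate 1 or 2 (adjusted p = 0.029 and 0.033).

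In cluster 15, where 1.27% of genes were called, Mmp3 was at 3.38, 9.87, 17.9 and 13.8 CPM without and at 4.86, 0, 23.7 and 0 CPM with DSS, and did not pass (-1.01 ± 0.89, adjusted p = 0.65). Timp1 (0.61 ± 0.27, adjusted p = 0.33), Mmp2 (0.49 ± 0.14, adjusted p = 0.12) and Mmp10 (1.14 ± 0.31, adjusted p = 0.11) did not pass either. The Mmp10 estimate ranged from 0.086 to 1.32 over the alternatives. Mmp14 rose by 0.69 ± 0.15 (adjusted p = 0.042), a call that was lost without any 1 of 6 libraries, all but the 2 DSS mutant ones (adjusted p = 0.055 to 0.26).

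Timp3, an inhibitor that binds to the matrix, took different directions between fibroblast-like clusters. In cluster 16 it stood at 275, 280, 318 and 195 CPM without and 98.1, 142, 96.2 and 88.7 CPM with DSS, and its log2 fold change was -1.29 ± 0.17 (adjusted p = 0.00016). In cluster 11 it was also lower after DSS, at 600 to 925 CPM against 923 to 1465 CPM, so that the ranges overlap slightly (-0.87 ± 0.19, adjusted p = 0.0087). In cluster 15 it was higher, at 564 to 1022 CPM against 382 to 445 CPM (0.93 ± 0.15, adjusted p = 0.0091).

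Over the whole class the Timp3 log2 difference was 0.24 ± 0.33 (adjusted p = 0.63), with DSS wildtype replicate 2 at 1482 CPM and the other DSS libraries at 414 to 723 CPM. Cluster 18, which could not be tested, held 9154 of the 10046 Timp3 UMIs of the class in DSS wildtype replicate 2. It held 336 of 745 in DSS wildtype replicate 1, and 1578 of 2809 and 4798 of 5184 in the DSS mutant libraries. The class estimate was -0.39 without DSS wildtype replicate 2 and 0.57 without DSS wildtype replicate 1. In cluster 11, Timp3 no longer passed when untreated wildtype replicate 2 (adjusted p = 0.058) or untreated mutant replicate 1 (0.098) was left out. In cluster 15 it was lost without any 1 of the 4 untreated libraries (adjusted p = 0.054 to 0.089). The difference between clusters was not itself tested, and the clusters were chosen for this comparison after their sizes were seen.

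**Figure D3:**
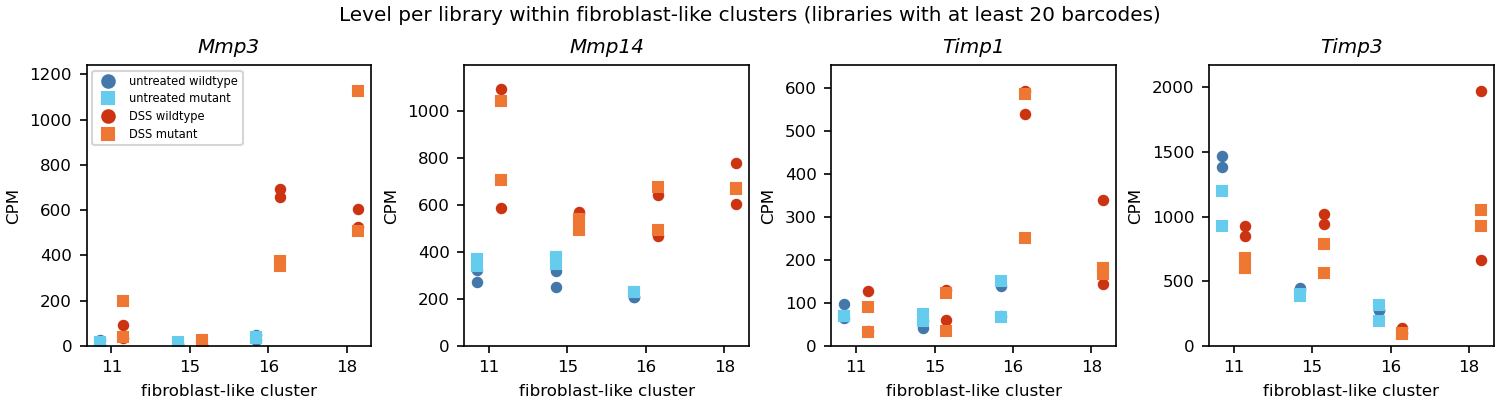
Level (CPM) of Mmp3, Mmp14, Timp1 and Timp3 in 4 fibroblast-like clusters, 1 point per library with at least 20 barcodes in the cluster, untreated to the left and DSS to the right of each position. Timp3 falls in clusters 11 and 16 and rises in cluster 15, while cluster 18 has DSS points only.

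In macrophage-like barcodes 8 members were tested and 2 rose, Mmp12 and Mmp14, against 24.1% of 9730 genes called and 11.7% called higher. Mmp12, the elastase of macrophages, was at 62.5, 55.7, 83.7 and 70.0 CPM without DSS and at 158, 84.2, 215 and 146 CPM with it. The lowest DSS value, wildtype replicate 2, was barely above the highest untreated one. The log2 fold change was 0.98 ± 0.20 (adjusted p = 0.0054), and with coarser clusters it was 0.48 and did not pass (adjusted p = 0.068). In DSS mutant replicate 2, 5 of 876 barcodes held 278 of the 435 Mmp12 UMIs, and 6.62% of barcodes had a UMI, against 8.18% to 10.6% in the untreated libraries. After thinning to 1000 UMIs that share was 4.43% to 8.07% in the DSS and 3.86% to 4.26% in the untreated libraries. Mmp14 was at 542, 438, 333 and 381 CPM and then at 827, 921, 822 and 900 CPM, with no overlap (0.90 ± 0.12, adjusted p = 0.0014).

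Mmp13 had most of its UMIs in this class, and its change depended on the libraries and the filter. Its untreated levels were 442, 428, 281 and 387 CPM, and its DSS levels were 843 and 406 CPM in wildtype and 816 and 329 CPM in mutant libraries. In each genotype replicate 1 was high and replicate 2 was within or near the untreated range. The sample names of the 2 high libraries carry neighbouring numbers, as do those of the 2 low ones. What these numbers stand for is not stated. The log2 difference was 0.50 ± 0.28 (adjusted p = 0.21), and it passed without DSS mutant replicate 2 (0.77, adjusted p = 0.030) and without a filter on low counts (0.51, adjusted p = 0.0024). The lowest estimate was 0.081, without DSS mutant replicate 1 (adjusted p = 0.82). Of 8 macrophage markers tested, 5 fell in the class after DSS, with their summed level at 11044 to 12082 CPM against 13355 to 15539 CPM.

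Timp1 and Timp2 did not pass in macrophage-like barcodes, at 7.79 ± 2.24 and 9.29 ± 2.22 CPM for Timp1 and 238 ± 18.4 and 249 ± 25.5 CPM for Timp2 (SD, n = 4, untreated first). The fitted Timp2 log2 difference was negative over the alternatives (-0.36 to -0.016) and passed in 1 of 15. Unlike these estimates, CPM values carry no further scaling between libraries, such as TMM. Mmp9 was at 1.04, 4.66, 3.09 and 3.85 CPM without and at 4.68, 11.5, 14.5 and 2.34 CPM with DSS, with overlap, and did not pass (1.25 ± 0.55, adjusted p = 0.12). It passed in 4 of 15 alternatives, namely without a filter on low counts, without DSS mutant replicate 2, without barcodes holding markers of another class and with coarser clusters (adjusted p = 0.00093 to 0.037). In a second myeloid cluster, led by Il1b, Cd14 and Chil3 and left unnamed, 16.5% of genes were called. There Mmp14 rose by 0.61 ± 0.11 (adjusted p = 0.0035) and Mmp9 by 1.20 ± 0.31 (adjusted p = 0.020), and Timp2 fell by 0.58 on the log2 scale (adjusted p = 0.0053). Mmp12 did not pass there, at 57.4 to 88.8 CPM without and 20.3 to 90.2 CPM with DSS (-0.35 ± 0.29, adjusted p = 0.43), and without DSS mutant replicate 1 it was lower after DSS (-1.05, adjusted p = 0.0067). The Mmp9 call was lost without DSS wildtype replicate 2, untreated wildtype replicate 2 or untreated mutant replicate 1 (adjusted p = 0.14, 0.081 and 0.083).

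**Figure D4:**
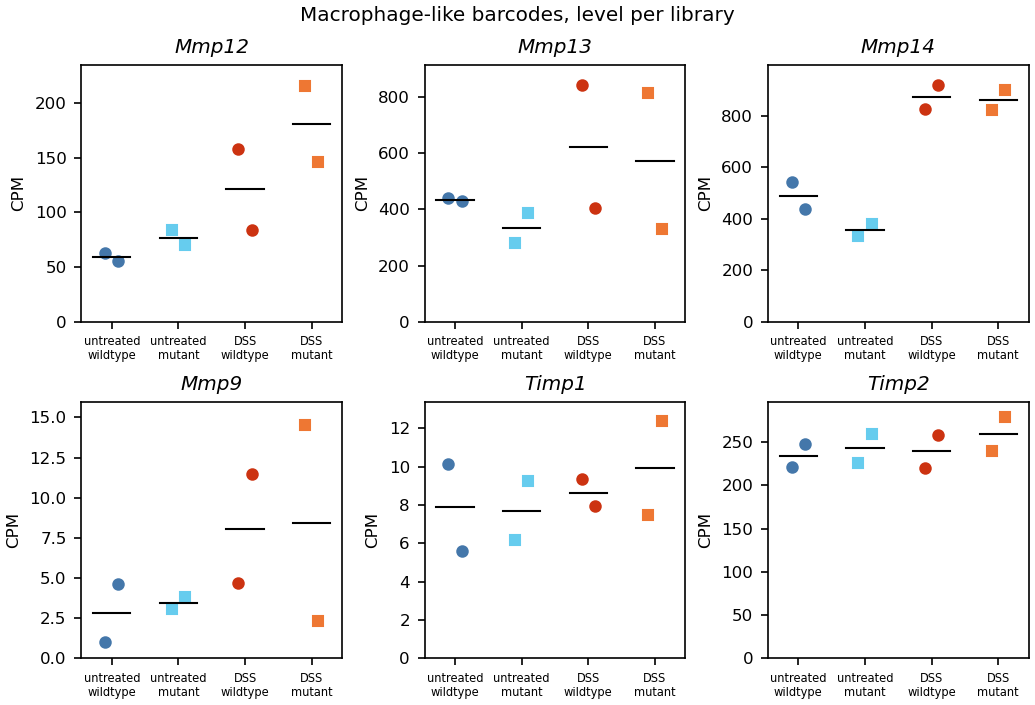
Level (CPM) of 6 members in macrophage-like barcodes, 1 point per library, circles for wildtype and squares for mutant, with a line at the group mean. Mmp14 and Mmp12 lie higher in all DSS libraries, and Mmp13 is high in 1 of the 2 DSS libraries of each genotype.

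In endothelial-like barcodes 8 members were tested and 3 rose, against 3.47% of 11081 genes called and 1.89% called higher. Mmp14 was at 94.3, 69.4, 69.6 and 67.5 CPM without and 151, 211, 130 and 161 CPM with DSS (log2 fold change 1.12 ± 0.17, adjusted p = 0.0092). Timp1 went from 12.2 ± 5.07 to 35.7 ± 17.1 CPM (SD, n = 4) with overlap between the groups (1.57 ± 0.34, adjusted p = 0.034). The Timp1 call was lost without any of 5 libraries, with adjusted p from 0.057 (untreated wildtype replicate 1) to 0.24 (DSS wildtype replicate 2); the others were untreated wildtype replicate 2, untreated mutant replicate 2 and DSS mutant replicate 1. With untreated wildtype replicate 2 left out, Mmp14 did not pass (adjusted p = 0.054). Timp3, which this class held at 2365 ± 328 CPM without and 3019 ± 811 CPM with DSS, did not pass (0.36 ± 0.19, adjusted p = 0.29). The class was mainly made of a cluster led by Fabp4 and Plvap (cluster 13) and one led by Ccl21a and Lyve1 (cluster 24). Mmp14 passed in both (adjusted p = 0.044 in cluster 13), with estimates over the alternatives of 0.60 to 1.24 and 1.19 to 1.43. Timp1 passed in neither (adjusted p = 0.058 and 0.055). Timp3 stood at 1674 and 4592 CPM in them over all libraries.

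Mmp3 in endothelial-like barcodes was at 0, 2.84, 0.25 and 0.44 CPM and then at 17.1 and 8.46 CPM in DSS wildtype and 94.3 and 53.9 CPM in DSS mutant libraries (5.37 ± 0.58, adjusted p = 0.0013). Very few barcodes carried these UMIs. In DSS mutant replicate 1, 17 of 366 barcodes had an Mmp3 UMI and 5 of them held 156 of the 173 UMIs. In DSS mutant replicate 2, 3 of 198 barcodes held all 65. For Mmp13, 1 barcode held 183 of the 192 UMIs of DSS mutant replicate 1, and for Mmp10, 1 barcode held 126 of 176. With barcodes holding markers of another class left out, Mmp3, Mmp10 and Mmp13 were too low to be tested, while Timp1 and Mmp14 passed. Such a filter also changes the calls over all genes, so this is not by itself a result about the members. The model of summed counts does not see how few barcodes a sum rests on. Per 100 UMIs of Dcn, Mmp3 had 13.2 and 6.89 UMIs in the endothelial-like barcodes of the DSS mutant libraries and 4.09 and 1.40 in the wildtype ones, against 6.01 to 7.86 in fibroblast-like barcodes.

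In mural-like barcodes (pericytes and smooth muscle) Timp1 rose from 14.9 ± 6.83 to 68.5 ± 8.60 CPM (SD, n = 4; 2.02 ± 0.28, adjusted p = 0.0049) and Mmp14 from 150 ± 37.7 to 374 ± 72.5 CPM (1.24 ± 0.21, adjusted p = 0.012), against 4.07% of genes called. The Mmp14 call was lost without DSS wildtype replicate 2 (adjusted p = 0.099) or DSS mutant replicate 2 (adjusted p = 0.062). Dcn, the fibroblast proteoglycan, stood at 1048 to 1624 CPM without and 1867 to 2817 CPM with DSS in this class (0.79 ± 0.15, adjusted p = 0.019). The part of fibroblast RNA in the Timp1 and Mmp14 values here was not tested. Mmp3 also passed there (3.15 ± 0.77, adjusted p = 0.047), but not without any 1 of 7 of the 8 libraries, the exception being DSS wildtype replicate 1, and not by DESeq2 (adjusted p = 0.21). Its UMIs lay in 1, 6, 8 and 4 barcodes of the DSS libraries, and 1 barcode of DSS wildtype replicate 2 held 58 of that library's 78.

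In dendritic-like barcodes Mmp14 went from 4.55 to 12.2 CPM up to 35.3 to 64.5 CPM (2.44 ± 0.25, adjusted p = 3.6e-05), and Timp1 from 3.48 to 11.6 CPM up to 14.7 to 43.5 CPM (1.63 ± 0.27, adjusted p = 0.0014), against 15.7% of genes called. In glial-like barcodes Timp1 rose by 2.36 ± 0.31 (adjusted p = 4.0e-08), against 3.05% of genes called. That fit dropped DSS wildtype replicate 2 and DSS mutant replicate 2, which had 17 and 11 glial-like barcodes. Each DSS group then held 1 library, assumed to vary like the untreated pairs, so that the p carries no spread of DSS libraries. The levels were 63.7 to 102 CPM in the untreated libraries and 463 and 405 CPM in the 2 DSS libraries kept. With replicates in each group, Timp1 thus rose in 4 classes (fibroblast-like, endothelial-like, mural-like and dendritic-like) and did not pass in macrophage-like barcodes. The endothelial-like and mural-like sums also held Dcn, as given above, so these classes may not be independent of the fibroblast-like one.

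**Figure D5:**
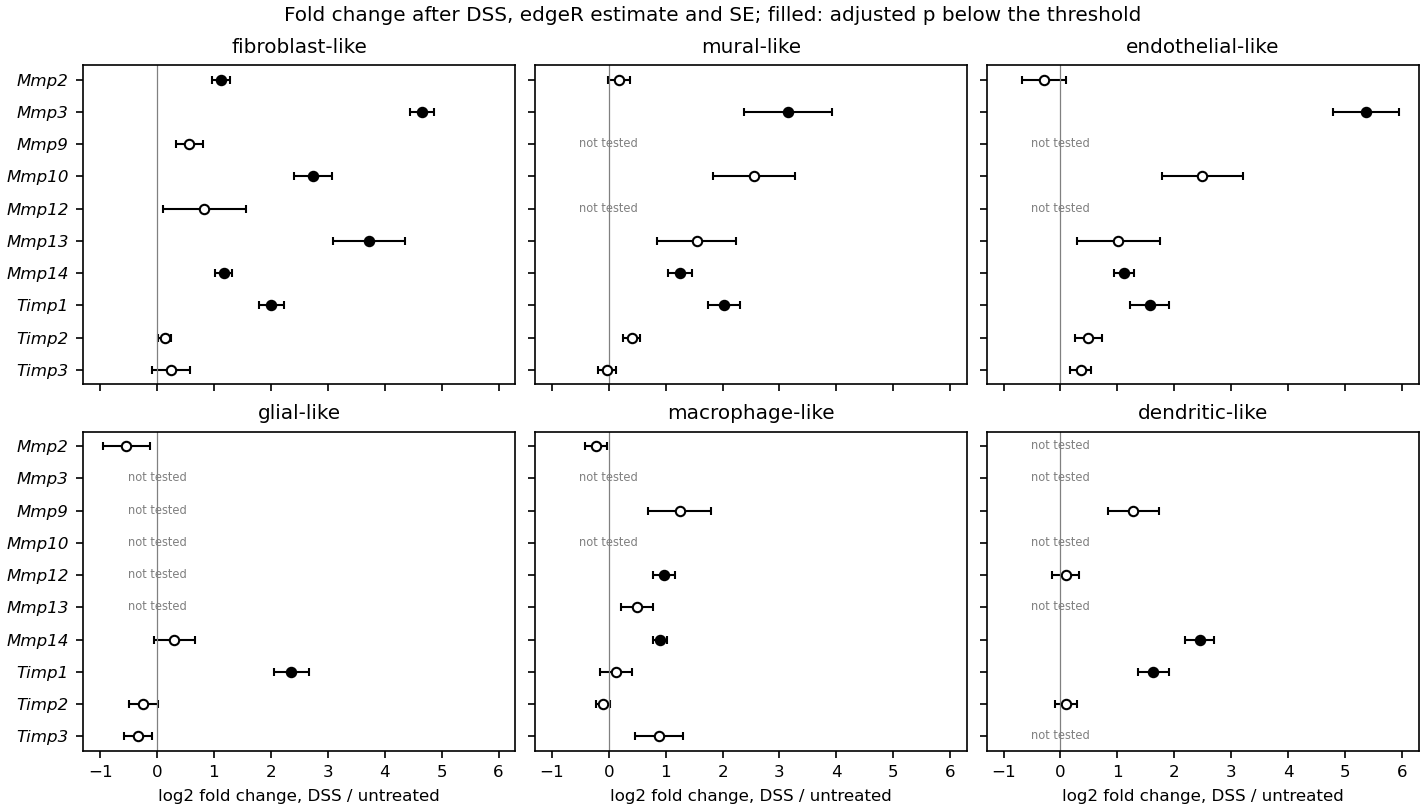
Log2 fold change after DSS (x axis, edgeR estimate with its SE) of the 10 members (rows) in 6 barcode classes, filled where the adjusted p passed. Mmp14 is filled in each panel except the glial-like one, and Timp1 in each except the macrophage-like one.

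In T cell-like barcodes, the largest class, the 9 members other than Timp2 did not exceed 19.4 CPM (Mmp14) in any library. Timp2 was at 97.5, 128, 148 and 190 CPM without and 107, 86.1, 111 and 70.6 CPM with DSS, with overlap (-0.63 ± 0.17, adjusted p = 0.039), against 16.6% of genes called. The call was lost without any 1 of 6 libraries, all but DSS wildtype replicate 1 and DSS mutant replicate 1, with adjusted p from 0.056 to 0.16. In the Foxp3-led cluster Timp2 fell from 229, 250, 322 and 339 CPM to 184, 169, 173 and 134 CPM, with no overlap (-0.83 ± 0.10, adjusted p = 0.00073), against 16.7% of genes called. Mmp9 in the same cluster was at 44.0 to 72.5 CPM in all 8 libraries and did not pass. Mmp3 passed in T cell-like barcodes from 0 CPM in each untreated library to 0.14 to 1.40 CPM with DSS (adjusted p = 0.033), a range that overlaps that of the macrophage-like barcodes (0.33 to 3.96 CPM), and the call was lost without any 1 of 6 libraries (adjusted p = 0.050 to 0.11).

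In neutrophil-like barcodes Mmp9 stood at 459, 548, 629 and 287 CPM without DSS and at 469, 1534, 879 and 1591 CPM with it. These values rest on 8 to 16 barcodes per untreated library and were not tested. Over all barcodes together, Mmp3, Mmp9, Timp1 and Mmp10 were called higher, against 12.2% of 16541 genes, with Mmp9 at a log2 fold change of 1.17 ± 0.15 (adjusted p = 0.0072). The Timp1 call there was lost without any 1 of 4 libraries (untreated wildtype replicates 1 and 2, DSS mutant replicates 1 and 2) and the Mmp10 call without any 1 of 7, all but DSS wildtype replicate 1. Such totals move with the number of barcodes of each class.

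The DSS effect was compared between classes directly. It was larger in fibroblast-like than in macrophage-like barcodes for Mmp13 (by 3.34 ± 0.72, adjusted p = 0.0086), Timp1 (by 1.81 ± 0.35, adjusted p = 0.0043) and Mmp2 (by 1.35 ± 0.28, adjusted p = 0.0069), on the log2 scale, against 10.3% of genes. Mmp2 also differed between fibroblast-like and endothelial-like barcodes (by 1.46 ± 0.27, adjusted p = 0.010), against 3.16% of genes. This call was lost with the marker gate (1.04, adjusted p = 0.15) and without barcodes holding markers of another class (1.03, adjusted p = 0.26). The Mmp14 effect differed by 0.26 ± 0.19 between fibroblast-like and macrophage-like barcodes and by 0.07 ± 0.15 between fibroblast-like and endothelial-like ones, and neither passed. Between macrophage-like and endothelial-like barcodes edgeR called 0 members, against 3.54% of genes, and DESeq2 also 0; 4 of 10 (Timp1, Timp2, Mmp10 and Mmp13) had an unadjusted p under 0.05 by edgeR, against 19.5% of genes.

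The mutation was compared within untreated and within DSS mice. In fibroblast-like, macrophage-like, endothelial-like and T cell-like barcodes edgeR called 0 members in either comparison and 0 for the difference between the DSS effects of the genotypes, against 0.0% of genes in each, with 2 libraries a group. At an unadjusted p under 0.05, edgeR found Mmp9 in fibroblast-like, Mmp14 in macrophage-like, Mmp13 in endothelial-like and Mmp10 and Timp2 in T cell-like barcodes of untreated mice, where 3.57%, 7.33%, 4.39% and 5.27% of genes in these classes reached it. After DSS it found Mmp3, Mmp10 and Mmp13 in endothelial-like barcodes, against 3.25% of genes. For the difference between the DSS effects it found Mmp3, Mmp10 and Mmp13 in endothelial-like barcodes (4.36% of genes) and Mmp10 in T cell-like ones (4.08%). DESeq2 called 0 members in the fibroblast-like, macrophage-like and T cell-like classes. The endothelial-like levels after DSS were Mmp13 at 105 and 25.7 CPM in DSS mutant against 3.66 and 2.12 CPM in DSS wildtype libraries, Mmp10 at 95.9 and 33.1 against 6.10 and 3.17 CPM, and the Mmp3 values given above. The adjusted p was 0.57 for each by edgeR. DESeq2 called all 3 (adjusted p = 0.0011 for Mmp13, 0.0032 for Mmp10 and 0.015 for Mmp3), against 0.0361% of genes, and for the difference between the DSS effects it called Mmp13 and Mmp10, against 0.0271%. With neighbouring numbers in the sample names as a block, edgeR also called the 3 after DSS (adjusted p = 0.00051 for Mmp13, 0.00047 for Mmp10 and 0.0033 for Mmp3), against 0.108% of genes. What these numbers stand for is not stated, and the labels name no pairs. The endothelial-like sums of these 3 members rest on a few barcodes, as given above.

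In the fibroblast-like class the DSS effect in the wildtype alone was called for 5 members, against 4.02% of genes, and in the mutant alone for 6, against 8.99%; the additional one was Mmp13. With 1 library left out the counts were 1 to 6 in each genotype. Most member calls of the wildtype were lost without untreated wildtype replicate 1 or 2 or DSS wildtype replicate 2. In the mutant, fewer members were called without any 1 of the untreated libraries, of either genotype, or without DSS mutant replicate 2. Fewer of all genes were called in each of these fits too, so the loss is not particular to the members. Each of these fits leaves a lone library in its group. The log2 fold change of Mmp3 was 4.85 ± 0.30 in the wildtype and 4.44 ± 0.30 in the mutant, a difference of -0.41 ± 0.38 that did not pass.

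Genes that act with the members were followed by fixed lists in fibroblast-like barcodes, where 10.9% of all genes were called higher and 11.4% lower. Of 10 known inducers tested, 6 rose and none fell, with a median log2 fold change of 1.76. Il11 went from 32.1 ± 12.0 to 569 ± 428 CPM, Lif from 6.06 ± 1.91 to 94.9 ± 38.8 CPM and Il6 from 36.7 ± 6.61 to 232 ± 26.7 CPM (SD, n = 4); Il1a, Il1b and Osm were also called. Il1b stood at 26.9 ± 8.33 and 102 ± 64.9 CPM here against 2253 ± 542 and 3698 ± 365 CPM in macrophage-like barcodes, and Osm at 0.92 ± 0.33 and 4.11 ± 1.68 against 46.7 ± 15.4 and 78.1 ± 18.2 CPM. Il17a, a T cell cytokine, stood at 142 ± 46.3 and 217 ± 163 CPM in fibroblast-like barcodes and did not pass. The part of other cells' RNA in the Il1a, Il1b and Osm calls was not tested. Of 10 receptors 7 rose, among them the interleukin-1 receptor Il1r1, from 83.4 ± 10.5 to 236 ± 3.28 CPM, and Osmr, from 76.0 ± 10.4 to 113 ± 9.04 CPM, while Il11ra1 fell by 1.10 on the log2 scale.

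Of 13 activators, clearance factors and partners tested, 7 rose and 1 (Itgb1) fell. Lrp1, a receptor that clears Mmp and Timp complexes, went from 375 ± 26.7 to 776 ± 127 CPM. Lcn2, listed among the partners, went from 2.97 ± 1.70 to 211 ± 78.4 CPM. Plaur, Plat, Serpine2 and A2m were among the others called.

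Of 15 Adam and Adamts proteases 6 rose, with Adamts15 going from 0.67 ± 0.40 to 14.5 ± 7.77 CPM, and Adam19 fell. From the list of other Mmps, Timp4 and Reck, 8 genes were tested, Timp4 not among them, and Mmp19 (58.0 ± 5.24 to 129 ± 31.5 CPM) and Mmp8 rose. Mmp8, a neutrophil collagenase, was at 0.139, 0.106, 0.098 and 0 CPM without DSS and at 0, 3.84, 1.75 and 2.65 CPM with it, so that DSS wildtype replicate 1 did not share the rise, and the neutrophil markers given above also went up in this class. Of 11 matrix substrates Col4a1, Col4a2, Vcan and Dcn rose, and Fn1 fell from 1629 ± 178 to 978 ± 159 CPM.

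Within cluster 16, which was present in all libraries, part of these list changes differed from those of the class. There 4 of 8 inducers rose (Il1b, Il6, Il11 and Lif), as did 7 of 10 receptors, 6 of 15 Adam and Adamts proteases and 4 of 12 activators and partners. Set against these counts, 18.7% of 9847 genes were called there in either direction. Il11ra1 (-0.12 ± 0.19, adjusted p = 0.71), Adam19 (-0.06 ± 0.16, adjusted p = 0.83), Mmp19 (0.27 ± 0.19, adjusted p = 0.36), Plat (0.12 ± 0.14, adjusted p = 0.62) and Plaur (0.47 ± 0.22, adjusted p = 0.15) did not pass, and Serpine2 fell by 0.59 on the log2 scale (adjusted p = 0.015). Of 10 matrix substrates 6 rose there, the collagens Col1a1, Col1a2, Col3a1, Col4a1 and Col4a2 together with Vcan. Dcn (-0.37 ± 0.13, adjusted p = 0.060) and Fn1 (-0.14 ± 0.15, adjusted p = 0.56) did not pass. The make-up of the class differed between conditions, as given above, and the difference between cluster 16 and the class was not tested.

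In macrophage-like barcodes 3 of 9 inducers rose and 1 fell, against the 24.1% of genes called there. Il6 (1.43 ± 0.38, adjusted p = 0.017), Il1b (0.58 ± 0.16 on the log2 scale, SE; adjusted p = 0.022) and Osm (0.62 ± 0.17, adjusted p = 0.022) rose, and Tgfb1 fell by 0.43 on the log2 scale. Mmp19 rose from 388 ± 176 to 647 ± 210 CPM (SD, n = 4) and the sheddase Adam8 from 47.6 ± 13.5 to 137 ± 79.5 CPM. In endothelial-like barcodes Adamts5, an aggrecanase, rose from 9.31 ± 1.70 to 63.6 ± 17.1 CPM. The lists were chosen with earlier results of these data known.

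Across 88 sums of 12 classes and 8 libraries, the genes whose log2(CPM + 1) followed Mmp3 most closely, among 13910 genes, included Cemip (Pearson r = 0.90) and Scara5 (0.88). For Timp1 they included Oaf (0.90) and Acvr1 (0.88). The sums share libraries and classes and are not independent.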

How the data were processed

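Per the labels, 10x 3' single-cell RNA libraries were made from colonic lamina propria enriched for CD4+ T cells. Per the submitters' processing notes, the tools were Cell Ranger 3.1.0 and Seurat 4.0.1, on mm10. The authors deposited UMI counts per gene and barcode for 8 libraries, unnormalized. Of these barcodes, 27420 are in a list the authors deposited, but it was not used as a filter.

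Barcodes with at least 400 genes and under 20% mitochondrial UMIs were kept. Counts were log-scaled, reduced to 30 components of 2000 variable genes without the 10 members, and clustered (Leiden, leidenalg 0.10.2, resolution 1). The other Mmp, Timp, Adam and Adamts genes, and genes of the related lists that were not markers, were also left out of the variable genes. So were mitochondrial, immunoglobulin, T cell receptor V, haemoglobin and some sex-linked genes. Clusters were named by marker lists, and stayed unnamed where they mixed markers of different lists, had more markers of another type among the top genes, had no clear best list or were of low depth. No doublet caller was run, and leaving out barcodes with 2 or more UMIs of another class's core markers was tried instead. The 1176 barcode sequences in more than 1 library were kept.

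Counts were summed per class and library, where a library had at least 20 barcodes of the class, and tested with edgeR 4.0.16 (quasi-likelihood, TMM, filterByExpr, 4 group means; R 4.3.3). The DSS contrast averages the genotypes, and p-values were Benjamini-Hochberg adjusted over all genes tested, with a threshold of 0.05. DESeq2 1.42.0 served as an alternative. The script was tested on simulated data.

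All 10 members are named, with the called genes of the related lists. For likeness, the 3 genes with the highest correlation of log2(CPM + 1) are named for the member with the largest change in fibroblast-like barcodes and for Timp1; some genes that these rules name are not reported here. The members and lists were chosen with earlier results of these data known. Tests of single clusters and of smaller classes were added after seeing the data. Alternatives were DESeq2's size factors, DESeq2, no filter on low counts, another barcode filter, a marker gate, coarser clusters and leaving out each library. Counting error, and the spread of 2 libraries a group, limit the precision. PCR duplicates are collapsed by the UMIs.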

Additional observations from a re-analysis of the deposited data

Results flagged for a closer look

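In groups of 4 libraries with both genotypes pooled, 6 of 78 groups checked had 1 library far from the others, and chance alone flags about 1 in 20 such groups. In fibroblast-like barcodes of the DSS libraries, DSS mutant replicate 1 had the highest Mmp12 level (6.02 CPM, 31 UMIs of which 13 were in 1 barcode), and DSS wildtype replicate 1 had the lowest Mmp13 level (3.34 CPM). In macrophage-like barcodes, DSS wildtype replicate 2 had the highest Timp3 level (12.8 CPM). In endothelial-like barcodes, untreated wildtype replicate 2 had the highest untreated Mmp3 level (2.84 CPM), DSS wildtype replicate 1 the highest Mmp9 level with DSS (2.44 CPM) and untreated wildtype replicate 1 the highest untreated Mmp14 level (94.3 CPM).

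The DSS effect differed between classes by a test of the difference for Timp1 (1.81 on the log2 scale), Mmp2 (1.35) and Mmp13 (3.34), each larger in fibroblast-like than in macrophage-like barcodes, and for Mmp2 (1.46), larger in fibroblast-like than in endothelial-like barcodes, which was lost with the marker gate and without barcodes holding markers of another class.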

How the results depend on the processing

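Of the members' DSS log2 fold changes in fibroblast-like, macrophage-like and endothelial-like barcodes under all alternatives, 350 kept direction and side of the threshold, 15 newly passed, 8 no longer passed and 10 changed sign. Members too low to be tested under an alternative gave no value there. Causes were not tested. The sign changes were all in members that had not passed: Timp3 in fibroblast-like barcodes without DSS_wildtype replicate 2 (-0.39, and up to 0.57 without others); Mmp12 there without DSS_mutant replicate 1 (-0.21, and up to 1.30 without others) and with the marker gate (-0.31); Timp1 in macrophage-like barcodes without untreated_wildtype replicate 2 (-0.049), untreated_mutant replicate 1 (-0.055) or DSS_mutant replicate 2 (-0.067, and up to 0.37 without others) and with the gate (-0.052); Timp3 there with the gate (-0.49); and Mmp2 in endothelial-like barcodes without DSS_wildtype replicate 1 (0.034) or DSS_mutant replicate 1 (0.055, and down to -0.99 without others).

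Members called for DSS were 6 in fibroblast-like barcodes under each alternative other than leaving out 1 library. Without a filter on low counts they were 5 in macrophage-like, 5 in endothelial-like and 6 in T cell-like barcodes, 4 in the macrophage-like and 3 in the endothelial-like wildtype alone, 2 and 3 for the differences of endothelial-like from fibroblast-like and macrophage-like barcodes, and, between genotypes in endothelial-like barcodes, 1 in untreated mice, 3 after DSS and 3 for the difference of the DSS effects. Coarser clusters gave 4 in macrophage-like barcodes. DESeq2 gave 1 and 2 in the macrophage-like and endothelial-like wildtype alone, 3 between genotypes in endothelial-like barcodes after DSS and 2 for the difference of the DSS effects. The marker gate gave 4 in T cell-like barcodes, 1 in the endothelial-like wildtype alone, and 0 and 2 for the differences of endothelial-like from fibroblast-like and macrophage-like barcodes. Without barcodes with markers of another class there was 1 in the endothelial-like wildtype alone and 1813 genes were called in fibroblast-like barcodes. Without a filter 1141 genes were called in endothelial-like barcodes, in place of 384. Such settings change the calls over all genes, so these member counts are not by themselves results about the members.

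Leaving out each library gave 5 to 7 members in fibroblast-like barcodes (1 to 6 in the wildtype alone), 2 to 5 in macrophage-like, 1 to 4 in endothelial-like, 0 to 3 in T cell-like and 2 to 5 in all barcodes. It gave 3 to 4, 1 to 1 and 0 to 1 for the fibroblast-macrophage, fibroblast-endothelial and macrophage-endothelial differences, and 0 to 1 between genotypes in endothelial-like barcodes after DSS and for their DSS effects. Genes called ranged over 1160 to 3922 in fibroblast-like, 788 to 2524 in macrophage-like, 44 to 489 in endothelial-like, 0 to 1906 in T cell-like and 257 to 3658 in all barcodes. A lone library was then assumed to vary like the other groups. No paired analysis was possible for DSS, because the labels name no pairs. Neighbouring numbers in the sample names join only libraries of different genotypes. With those numbers as a replicate block, 3 members were called between genotypes in endothelial-like barcodes after DSS and 0 in the other such comparisons. Few barcodes limit the endothelial-like values.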
